A study of Mus musculus with 6 samples.

Results

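The 8 genes described here are Cyp1a1 and 7 further genes of the aryl hydrocarbon receptor (AhR) pathway in the mouse lung. They are the receptor Ahr, its partner Arnt, the feedback inhibitors Ahrr and Tiparp, and the target enzymes Cyp1a1, Cyp1a2, Cyp1b1 and Aldh3a1. They were found by gene symbol among the 54532 genes of the deposited table, and all 8 were present. The list was selected on a known rise of Cyp1a1 in this same comparison, so the members' values are a description, with no p-value for any of them, and nothing is read from whether they pass a threshold. Of the 8, 7 passed the filter on low values, and Cyp1a2 did not.

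RNA-Seq was performed on perfused whole lungs of 3 wild-type (WT) mice and 3 mice labelled ISM1-KO, which lack the secreted protein isthmin 1 according to their label. All 6 mice were untreated, 2 months old and on a C57BL/6J background, with 1 library per mouse. WT mice were bought from a supplier and ISM1-KO mice were bred in-house, so genotype and animal source cannot be told apart in any comparison below. Libraries held 37606133 to 42345042 counts, and every pair of them differed by more than sampling noise. In chi-square per degree of freedom, ISM1-KO replicate 3 differed from replicates 1 and 2 of its genotype by 21.1 and 17.6. Those replicates differed from each other by 7.82. Likewise, WT replicate 1 differed from WT replicates 2 and 3 by 15.8 and 16.9, against 5.46 between the latter. Markers of alveolar type 2 cells, which define that surfactant-making cell of the lung, summed to 22370 to 23814 CPM (counts over library size, after TMM scaling) across the 6 libraries and overlapped between genotypes. The labels do not say whether the 3 mice of a genotype were littermates, so p-values measure the spread between these 6 lungs.

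AhR is a ligand-activated transcription factor that waits in the cytoplasm in a complex with the chaperone HSP90. When it binds a ligand, such as a dioxin, a polycyclic aromatic hydrocarbon, a dietary indole or a tryptophan metabolite, it moves to the nucleus, pairs with ARNT and binds DNA elements with the core GCGTG. Cyp1a1, which encodes a cytochrome P450 that oxidises aromatic hydrocarbons, is the most widely used readout of this pathway, and in the lung it is known to be inducible in capillary endothelium and airway epithelium. AHRR competes with AhR for ARNT, and TIPARP modifies AhR with ADP-ribose, so both act as brakes on the receptor.

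The 250 bases upstream of the RefSeq start sites of Cyp1a1 and Ahrr are shown because they are the proximal promoters of the member with the largest difference between genotypes and of the member with the most core motifs. Both are read 5′ to 3′ on the strand of the gene in GRCm38.p6, and capitals mark GCGTG on that strand.
Cyp1a1, chr9:57697363-57697612, plus strand: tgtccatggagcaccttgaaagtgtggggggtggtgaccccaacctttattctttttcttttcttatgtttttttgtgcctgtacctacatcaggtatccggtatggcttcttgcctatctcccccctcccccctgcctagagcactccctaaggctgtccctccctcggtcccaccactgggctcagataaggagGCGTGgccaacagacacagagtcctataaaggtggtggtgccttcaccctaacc
Ahrr, chr13:74292332-74292581, minus strand: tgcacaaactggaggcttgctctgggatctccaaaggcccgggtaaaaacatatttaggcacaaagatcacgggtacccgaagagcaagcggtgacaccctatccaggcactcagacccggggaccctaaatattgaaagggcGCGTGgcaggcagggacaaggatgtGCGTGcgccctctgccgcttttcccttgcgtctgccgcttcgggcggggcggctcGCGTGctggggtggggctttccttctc

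The core GCGTG was searched on both strands in RefSeq windows of 300 bases, from 250 before to 50 after the start site, which were held for 6 of the 8 members. It was present in 5 of these 6 windows and in 32.4% of 32851 windows of the genome. In Cyp1a1 the core began at position -54 from the start site, and in Ahrr at -107, -82 and -27. Arnt held it at -29, Tiparp at -170 on the opposite strand and Cyp1b1 at -76 on the opposite strand. The Cyp1a2 window held none. A longer form, TNGCGTG, which contains the core, was found in the Ahrr window alone among the members, at -29, and in 5.07% of all windows. These matches describe letters in short windows only and do not show binding. Sequence further upstream was not searched, so elements there would be missed. The deposited gene table gives Cyp1a1 a span that begins upstream of this RefSeq start, so the window lies inside that span. Ahr and Aldh3a1 had no window.

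**Figure D1:**
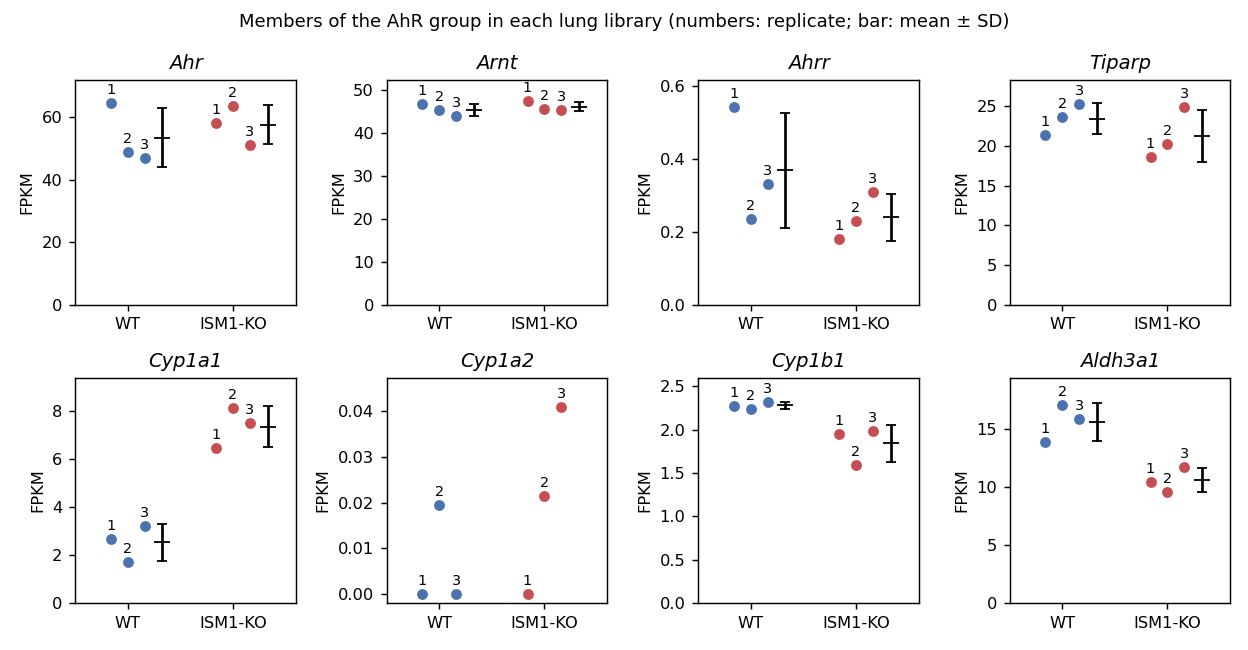
FPKM of the 8 members in each of the 6 lungs (one point per library, numbered by replicate), with a bar for the mean and SD of 3 libraries in all panels but that of Cyp1a2. The 3 lungs labelled ISM1-KO lie above all WT lungs for Cyp1a1 and below them for Cyp1b1 and Aldh3a1, while the other genes overlap.

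Levels between genes were compared per length, as FPKM (counts scaled by library size and gene length, here the authors' values). In WT lungs the order from high to low was Ahr, Arnt, Tiparp, Aldh3a1, Cyp1a1, Cyp1b1, Ahrr and Cyp1a2. The receptor itself stood at 53.5 ± 9.53 FPKM and Arnt at 45.2 ± 1.41 FPKM (SD, n = 3). At the other end, Ahrr had 0.370 ± 0.158 FPKM. Among neighbours in this order, the ranges overlapped only for Cyp1a1, with 1.69 to 3.22 FPKM, and Cyp1b1, with 2.24 to 2.32 FPKM. The order was the same in lungs labelled ISM1-KO, where no neighbours overlapped. Cyp1a1 there reached 7.34 ± 0.841 FPKM against 1.84 ± 0.217 FPKM for Cyp1b1 (SD, n = 3).

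Cyp1a1 (ENSMUSG00000032315, chromosome 9, 57687928 to 57703824, plus strand, GRCm38) was the member with the largest difference between genotypes. The WT lungs gave 264, 187 and 330 reads for replicates 1, 2 and 3, and the lungs labelled ISM1-KO gave 725, 817 and 788. As normalised read counts these were 7.002, 4.51 and 8.53 CPM against 17.1, 21.5 and 20.2 CPM. The lowest library labelled ISM1-KO stood above the highest WT library. The lowest of all 6 was WT replicate 2. The means were 6.68 ± 2.03 CPM in WT and 19.6 ± 2.30 CPM in ISM1-KO (SD, n = 3), a 2.94-fold difference and a log2 fold change of 1.55 with SE 0.193 and a 95% interval from 1.12 to 1.99. Among all 18689 genes tested this was the rise of rank 58 by size. Leaving out 1 library at a time moved the log2 fold change between 1.33, without WT replicate 2, and 1.77, without WT replicate 3.

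Cyp1a2, the sister enzyme, is best known from liver and lies head to head with Cyp1a1 on the opposite strand of chromosome 9 (57676937 to 57683703, GRCm38). The WT lungs gave 0, 1 and 0 reads and the ISM1-KO lungs 0, 1 and 2. With 1 count in WT and 3 in ISM1-KO it was at or under the floor of 3 counts per group, and no fold is given. The transcripts of Cyp1a1 and Cyp1a2 share at most 137 identical bases in a row, less than 1 read of 150 bases. Hepatocyte markers were near 0 as well, with a summed level of 1.25 to 1.86 CPM in WT and 0.923 to 1.29 CPM in ISM1-KO, and 3 of the 7 had no count in any library.

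Cyp1b1 (ENSMUSG00000024087, chromosome 17, 79706953 to 79715041, minus strand) encodes the third CYP1 enzyme, which acts on oestrogens and aromatic hydrocarbons and is typical of stromal cells. The WT lungs gave 438, 477 and 459 reads and the ISM1-KO lungs 424, 309 and 402, or 11.6, 11.5 and 11.9 CPM against 9.97, 8.14 and 10.3 CPM. All 3 ISM1-KO values lay below WT, by a small margin for the highest of them. The log2 fold change was -0.30 with SE 0.107 and a 95% interval from -0.54 to -0.06. Summed fibroblast markers overlapped between genotypes, at 2598 to 2778 CPM in WT and 2477 to 2639 CPM in ISM1-KO. Of the 7 markers, 3 had a higher mean and 4 a lower mean. At an adjusted p under 0.1, 3 of the 7 were lower, against 3.34% of all genes.

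The ratio of Cyp1a1 to Cyp1b1 within each library needs no scaling between libraries. In WT lungs Cyp1a1 CPM divided by Cyp1b1 CPM was 0.603, 0.392 and 0.719, and in ISM1-KO lungs it was 1.71, 2.64 and 1.96. The ratio of Cyp1a1 to Aldh3a1 CPM was 0.398, 0.207 and 0.424 in WT and 1.29, 1.76 and 1.33 in ISM1-KO. Neither ratio overlapped between genotypes. This follows from Cyp1a1 being higher and Cyp1b1 and Aldh3a1 lower without overlap, so the ratios add no separate result. Both contain Cyp1a1, for which the members were chosen.

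Aldh3a1 (ENSMUSG00000019102, chromosome 11, 61207537 to 61218421, plus strand) encodes an aldehyde dehydrogenase that is a textbook AhR-inducible gene and, like Cyp1a1, a member of the classical AhR battery. It differed in the opposite direction to Cyp1a1. Replicates 1 to 3 gave 664, 903 and 778 reads in WT lungs and 563, 463 and 591 reads in ISM1-KO lungs, or 17.6, 21.8 and 20.1 CPM against 13.2, 12.2 and 15.1 CPM. The ISM1-KO libraries were all below the WT libraries. The level was 1.47-fold lower, with a log2 fold change of -0.55, SE 0.107 and a 95% interval from -0.79 to -0.31.

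Ahrr (ENSMUSG00000021575, chromosome 13, 74211118 to 74292331, minus strand) is itself induced by AhR in many tissues. Only 40, 19 and 25 reads came from WT lungs and 15, 17 and 24 from ISM1-KO lungs, or 1.06, 0.458 and 0.646 CPM against 0.353, 0.448 and 0.615 CPM. The genotypes overlapped, and WT replicate 1 was the highest library. The log2 fold change was -0.61 with SE 0.386, and its 95% interval from -1.47 to 0.25 spans a large fall and a small rise. It was -0.22 without WT replicate 1 and -0.85 without WT replicate 2.

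Tiparp (ENSMUSG00000034640, chromosome 3, 65528410 to 65555518, plus strand) was read 1506, 1833 and 1825 times in WT lungs and 1470, 1438 and 1848 times in ISM1-KO lungs. As normalised values these were 39.9, 44.2 and 47.2 CPM against 34.6, 37.9 and 47.4 CPM, and the highest library of all was ISM1-KO replicate 3. The log2 fold change was -0.13 with SE 0.113 and a 95% interval from -0.38 to 0.12. With 1 library left out it ran from -0.27, without ISM1-KO replicate 3, to -0.04, without ISM1-KO replicate 1. A pseudogene on the opposite strand, 4931440P22Rik, overlaps Tiparp by 970 bases and had 99 to 136 counts per library. The libraries were directional, but the strand setting of the counting is not known, so a small share of these reads cannot be assigned with certainty.

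Ahr (ENSMUSG00000019256, chromosome 12, 35497974 to 35535038, minus strand) gave 6076, 5095 and 4552 reads in WT lungs and 6159, 6039 and 5083 reads in ISM1-KO lungs, or 161, 123 and 118 CPM against 145, 159 and 130 CPM. The genotypes overlapped, and the highest library was WT replicate 1. The log2 fold change was 0.11 with SE 0.117 and a 95% interval from -0.15 to 0.37. With 1 library left out it ran from 0.03, without WT replicate 3, to 0.27, without WT replicate 1. WT replicate 1 also had the highest summed level of cardiomyocyte markers, 1491 CPM against 256 to 568 CPM in the other 5, and whether this bears on Ahr was not tested.

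Arnt (ENSMUSG00000015522, chromosome 3, 95434388 to 95497240, plus strand) had the smallest difference between genotypes of the 7 tested members. WT lungs gave 4107, 4393 and 3957 reads and ISM1-KO lungs 4699, 4046 and 4206, or 109, 106 and 102 CPM against 111, 107 and 108 CPM. The genotypes overlapped, with a log2 fold change of 0.04, SE 0.0540 and a 95% interval from -0.09 to 0.16. The lincRNA Gm48236 overlaps Ahr by 618 bases on the opposite strand, and the pseudogene Gm42672 lies within Arnt over 352 bases on the same strand. Their counts, at most 107 and 53 per library, were small beside those of Ahr and Arnt.

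**Figure D2:**
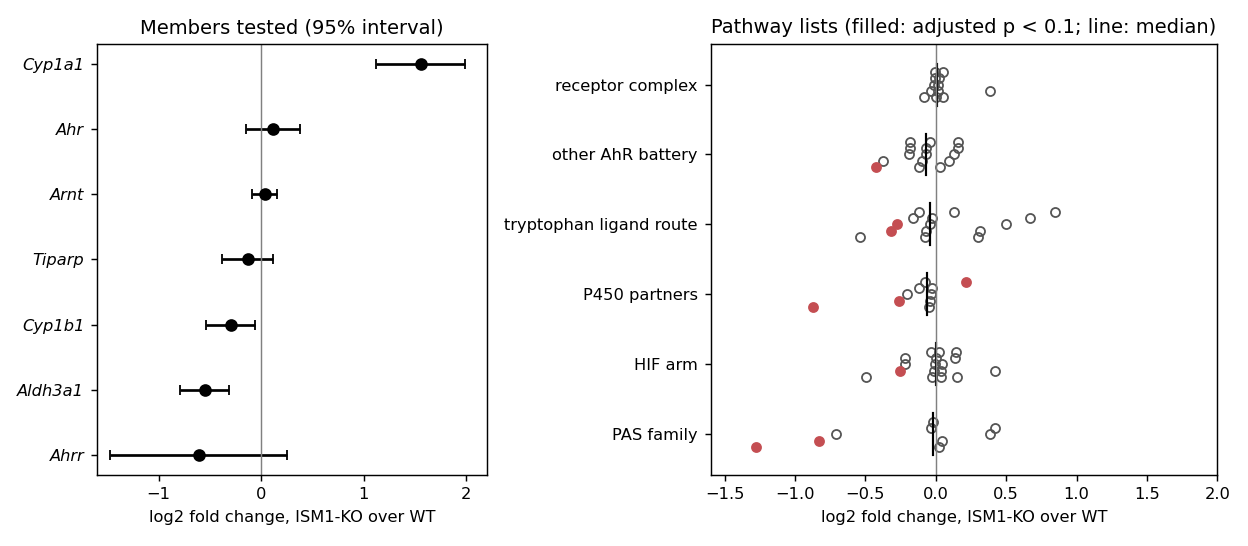
Log2 fold changes (ISM1-KO over WT) of the 7 tested members with 95% intervals from edgeR on the left, and of each tested gene of the 6 pathway lists on the right, where filled points passed an adjusted p under 0.1 and a line marks the list's median. Cyp1a1 lies at 1.55, Aldh3a1 at -0.55 and Cyp1b1 at -0.30, and the intervals of Ahr, Arnt, Ahrr and Tiparp span 0, while the list medians lie between -0.07 and 0.01.

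Over all genes, 0.567% passed an adjusted p under 0.1 with a change of at least 2-fold, and 4.72% passed the adjusted p alone (quasi-likelihood test of edgeR, Benjamini-Hochberg adjustment). Of the 7 members tested, 1 passed both, Cyp1a1, and 2 passed the adjusted p alone, Cyp1a1 and Aldh3a1. Genotypes did not overlap for 3 members, Cyp1a1 above and Cyp1b1 and Aldh3a1 below, against 21.6% of all genes. Because the list was chosen for Cyp1a1 in this contrast, nothing is read from these counts. The mean was higher in ISM1-KO for 3 members and lower for 4, while the median log2 fold change of all genes was 0.00.

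The targeted gene Ism1 gave 3098, 3215 and 2975 reads in WT lungs and 2784, 2508 and 2953 reads in ISM1-KO lungs. Its log2 fold change was -0.19 with SE 0.0709, and it did not pass the test (edgeR, adjusted p = 0.217). Ism1 transcript was thus present in the libraries labelled ISM1-KO, and the sources used here do not say which part of the gene was altered, so gene-level counts do not check the label.

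The rest of the AhR pathway is described by lists of genes outside the 8 members. The receptor complex list holds the chaperones, carriers and coactivators that keep AhR ready and work with it in the nucleus. None of its 12 genes, all tested, passed an adjusted p under 0.1 (edgeR, smallest adjusted p = 0.475), 0 had an unadjusted p under 0.05, and DESeq2 called 0. Their median log2 fold change was 0.01, with a range from -0.09 to 0.38. The most abundant, the HSP90 subunit genes Hsp90ab1 and Hsp90aa1, differed by 0.05 with SE 0.0666 and by 0.02 with SE 0.127 on the log2 scale. The share of all genes at an unadjusted p under 0.05 was not counted. Nothing is therefore read from the counts at that threshold, here or below.

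Other genes known to be induced through AhR formed a list of 20, of which 15 were tested. With 2-fold required, edgeR and DESeq2 called 0 of them, while 2 had an unadjusted p under 0.05 and 1 passed the adjusted p alone, in the downward direction. This was Cyp2s1, an epithelial cytochrome P450, which fell by 0.43 on the log2 scale (edgeR, adjusted p = 0.0108), from 5549, 6516 and 5841 counts in WT to 4955, 4242 and 4307 in ISM1-KO. The median of the list was -0.07 and its range -0.43 to 0.16. The most abundant genes of the list, the lipid transporter Cd36 at -0.07 with SE 0.0914 and the purine oxidase Xdh at 0.16 with SE 0.128, did not pass. Nqo1, a quinone reductase and classical battery gene that was picked here after its values were seen, gave 224, 246 and 238 reads in WT lungs against 204, 160 and 189 reads in ISM1-KO lungs, with a log2 fold change of -0.38 (edgeR, adjusted p = 0.142). Gsta1, Serpinb2, Il22, Ereg and Fgf21 were too low to be tested.

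Enzymes that make or break down tryptophan-derived AhR ligands formed a list of 17, with 15 tested and 2 past the adjusted p alone, both lower. The aldehyde oxidases Aox1 and Aox3 fell by 0.32 (edgeR, adjusted p = 0.0298) and 0.27 (edgeR, adjusted p = 0.0937) on the log2 scale. Aox1 no longer passed without WT replicate 2, ISM1-KO replicate 1 or ISM1-KO replicate 2, and Aox3 passed in 1 of the 6 fits with a library left out, that without ISM1-KO replicate 3. The list went both ways, with a median of -0.04, a range from -0.54 to 0.85 and 7 genes at an unadjusted p under 0.05. Among genes that did not pass and were picked after their values were seen, Tdo2 and Il4i1, which break down tryptophan, had log2 fold changes of 0.85 (edgeR, adjusted p = 0.180) and 0.67 (edgeR, adjusted p = 0.132). Haao was at 0.50 (edgeR, adjusted p = 0.168) and Kyat3, a kynurenine aminotransferase, at -0.54 (edgeR, adjusted p = 0.129). In DESeq2 the adjusted p of Il4i1 was 0.0232 and that of Kyat3 0.0405.

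Partners of the P450 enzymes, which supply electrons and haem or act on epoxides that P450s form, numbered 10, all tested. The adjusted p was passed by 3 of them, of which 1 was higher and 2 lower, and none of these reached 2-fold. Ephx2, a soluble epoxide hydrolase, fell by 0.87 (edgeR, adjusted p = 0.0539) and Por, the electron donor of microsomal P450s, fell by 0.26 (edgeR, adjusted p = 0.0578). Ephx1, the microsomal epoxide hydrolase that acts on CYP1A1 products, rose by 0.21 (edgeR, adjusted p = 0.0925). The median of the list was -0.06. Por passed without WT replicate 1 or without ISM1-KO replicate 3 only. Ephx1 and Ephx2 passed in 1 of the 6 fits each, that without ISM1-KO replicate 3, in which Ephx2 also reached 2-fold.

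ARNT also pairs with the hypoxia-inducible factors, so their genes and targets were listed separately. Of 17 genes, all tested, 1 passed the adjusted p, the glucose transporter Slc2a1, which fell by 0.25 on the log2 scale (edgeR, adjusted p = 0.0873). It passed in 1 of the 6 fits with a library left out, that without ISM1-KO replicate 3. The median of the list was 0.00. Epas1, which encodes HIF-2α, and Vegfa, its angiogenic target, were the most abundant and differed by 0.02 with SE 0.0667 and by 0.14 with SE 0.0587.

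AhR and ARNT belong to the PAS family of transcription factors, whose other 13 listed genes include those of the circadian clock. Of 9 tested, 2 passed the adjusted p, both lower. Npas2 fell by 1.27 on the log2 scale with SE 0.140 (edgeR, adjusted p = 0.00739), from 287, 302 and 330 counts in WT to 138, 139 and 108 in ISM1-KO, and was the only gene of the 6 lists that also passed 2-fold. Arntl (Bmal1) fell by 0.83 with SE 0.0919 (edgeR, adjusted p = 0.00739), from 927, 943 and 1013 counts to 650, 493 and 505. Both are clock activators and passed in all 6 fits with a library left out. The median of the list was -0.02.

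Bulk lung RNA mixes cell types, and fewer cells of a type and less RNA per cell cannot be told apart. Club cell markers, which mark the secretory cells of the airway, summed to 27411 to 29603 CPM in WT and 18673 to 22742 CPM in ISM1-KO without overlap. Of the 7 markers, 6 had a lower mean and 5 were lower at an adjusted p under 0.1, with a median log2 fold change of -0.37, and all 7 were detected. Taken singly, 3.34% of all genes were lower at that adjusted p, 12.3% were lower without overlap and 0.284% were called lower. Ciliated cell markers summed to 566 to 649 CPM in WT and 498 to 542 CPM in ISM1-KO, where all 6 had a lower mean and 4 were lower at an adjusted p under 0.1. Squamous epithelium markers were low and did not overlap, at 5.48 to 8.33 CPM in WT and 2.82 to 3.01 CPM in ISM1-KO. Of the 3 tested, 1 was called, Sprr1a, at 4.47 ± 2.198 CPM in WT and 1.68 ± 0.179 CPM in ISM1-KO (SD, n = 3). Sprr1a held 6.82 of the 8.33 CPM in WT replicate 1 and 2.46 of the 5.48 CPM in WT replicate 3. Krt5, at -1.01 on the log2 scale (edgeR, adjusted p = 0.305), and Krt14, at 0.11, overlapped between genotypes and did not pass. The remaining squamous markers were too low to be tested. Cardiomyocyte markers overlapped, at 470 to 1491 CPM in WT and 256 to 504 CPM in ISM1-KO, but all 7 had a lower mean, with a median log2 fold change of -1.11, and 1, Myl7, was called. Adipocyte markers fell too, from 135 to 175 CPM in WT to 28.1 to 72.9 CPM in ISM1-KO, with all 6 lower at an adjusted p under 0.1. Capillary endothelial markers summed to 3578 to 3706 CPM in WT and 3723 to 3979 CPM in ISM1-KO, separated by a narrow gap. Of the 9, 7 had a higher mean and 2 a lower mean, and none passed the test. Their median log2 fold change was 0.10, and whether this bears on Cyp1a1 was not tested.

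The club cell sum was lower in ISM1-KO, as were Aldh3a1 and Cyp2s1. In ISM1-KO replicates 1, 2 and 3 the sum was 18673, 20437 and 22742 CPM. Cyp2s1 was at 117, 112 and 110 CPM in these libraries, and Aldh3a1 at 13.2, 12.2 and 15.1 CPM. Most of the sum is Scgb1a1, at a mean of 20919 CPM in WT and 14669 CPM in ISM1-KO. Aldh3a1 and Cyp2s1 were also divided by the club cell sum of the same library, a scaling chosen after the markers were seen. Per 10000 CPM of club cell markers, Aldh3a1 was at 6.42, 7.70 and 6.80 CPM in WT and 7.09, 5.97 and 6.66 CPM in ISM1-KO. On this scale the genotypes overlapped, with a log2 ratio of -0.08, and so did Cyp2s1. Cyp1a1 stood at 2.55, 1.59 and 2.88 CPM in WT and 9.13, 10.5 and 8.88 CPM in ISM1-KO, a log2 ratio of 2.02, against 1.55 without this scaling. This scaling adds about the same amount to every gene, since the mean club cell sum was 0.46 lower on the log2 scale in ISM1-KO. Any smaller fall thus turns to a positive value by construction, and falls of about that size, as for Aldh3a1 and Cyp2s1, largely cancel. Ahr came to 0.58, Arnt to 0.51, Tiparp to 0.33, Por to 0.21, Cyp1b1 to 0.17 and Ahrr to -0.18. The part of cell composition in these differences was not tested.

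**Figure D3:**
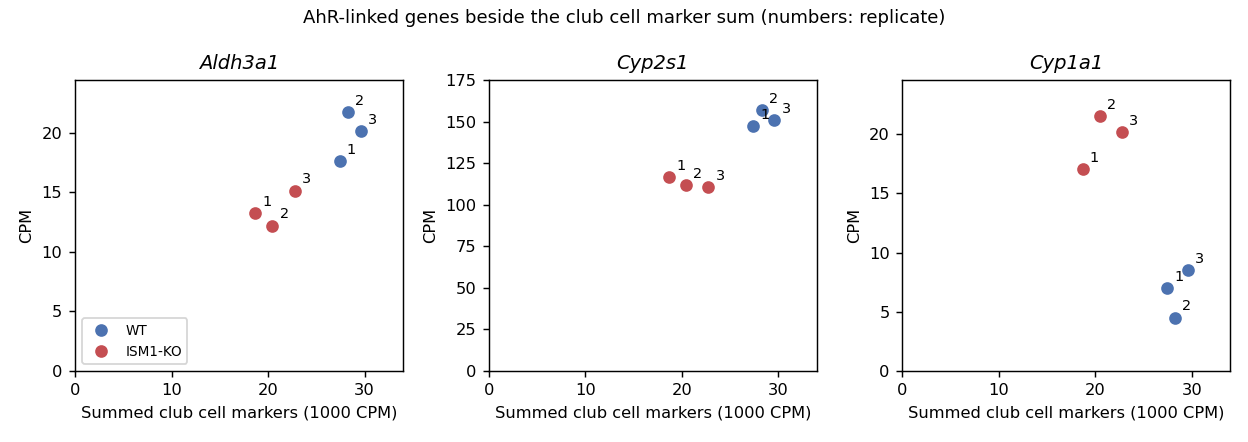
CPM of Aldh3a1, Cyp2s1 and Cyp1a1 (vertical axes) against the summed CPM of the club cell markers (horizontal axes, in units of 1000 CPM), with one point per library. The lungs labelled ISM1-KO lie to the left of the WT lungs (18673 to 22742 against 27411 to 29603 CPM), below them for Aldh3a1 and Cyp2s1 and above them for Cyp1a1.

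Cyp1a1 lies in a gene-rich part of chromosome 9. Of 13 protein-coding genes within 200 kb, 10 were tested and none passed the test (edgeR, smallest adjusted p = 0.269), while 3 had an unadjusted p under 0.05 and DESeq2 called 0. Their log2 fold changes ran from -0.51 for Rpp25 to 0.15 for Csk. The nearest tested gene, Edc3, lies 4.716 kb away and differed by 0.12, and Csk, at -34.3 kb on the other side, by 0.15. The rest lay between these values, namely Cox5a at -0.15, Mpi at -0.08, Scamp2 at -0.03, Fam219b at 0.00, Ulk3 at 0.05, Clk3 at 0.14 and Arid3b at 0.15. Genotypes did not overlap for 5 of the 10 tested neighbours, against 21.6% of all genes. Rpp25 and Cox5a were lower in ISM1-KO, and Edc3, Clk3 and Arid3b were higher. The untested neighbours were Cyp1a2, Cplx3 and Lman1l.

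**Figure D4:**
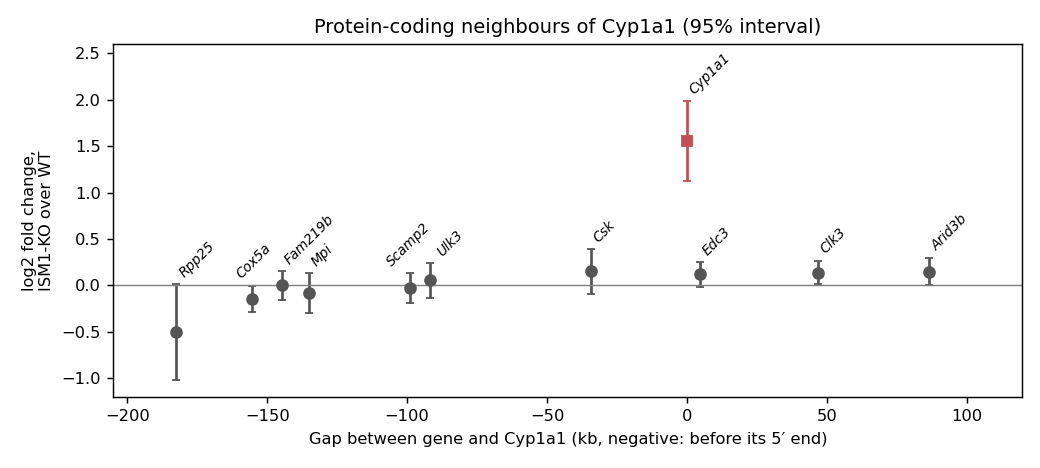
Log2 fold changes (ISM1-KO over WT) with 95% intervals of Cyp1a1 and of the 10 tested protein-coding genes within 200 kb, against their distance from Cyp1a1 in kb. Cyp1a1 stands at 1.55, and its neighbours lie between -0.51 and 0.15.

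The genes most like Cyp1a1 were ranked by the root mean square difference of centred log2 CPM over the 6 libraries among the 15875 other genes that averaged 1 CPM or more. The first 8 were Igkv1-117 with 0.323, Cxcr2 with 0.370, Igkv6-23 with 0.379, Xlr4b with 0.387, Ntrk2 with 0.391, S100a8 with 0.406, and Slfn4 and Igkv10-96 with 0.418 each. They comprise immunoglobulin light chain segments, the neutrophil genes Cxcr2 and S100a8, and Xlr4b, Ntrk2 and Slfn4. All 8 were higher in ISM1-KO without overlap. The ranking draws on the same genotype difference for which Cyp1a1 was chosen, so it does not show shared regulation. Of the 5 plasma cell markers tested, only Jchain, the joining chain of secreted antibodies, passed the test. It had 4.18 ± 0.268 CPM in WT and 18.2 ± 3.94 CPM in ISM1-KO (SD, n = 3). Mzb1 had 3.84 ± 0.1001 CPM and 5.18 ± 1.28 CPM (SD, n = 3), with overlap (edgeR, adjusted p = 0.277). Xbp1 and Derl3 each differed by 0.08 and Sdc1 by -0.13 on the log2 scale without passing, and Tnfrsf17 was too low to be tested. The sum of all 6 overlapped, at 429 to 473 CPM in WT and 456 to 466 CPM in ISM1-KO, and is mostly Xbp1 and Sdc1, which other lung cells express too. Igkv segments are near-identical copies and their counts are uncertain. None of the 8 were among the first 8 by Pearson's r, and 6 of them were on the log2(FPKM + 0.1) scale, so the ranking depends on the measure.

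**Figure D5:**
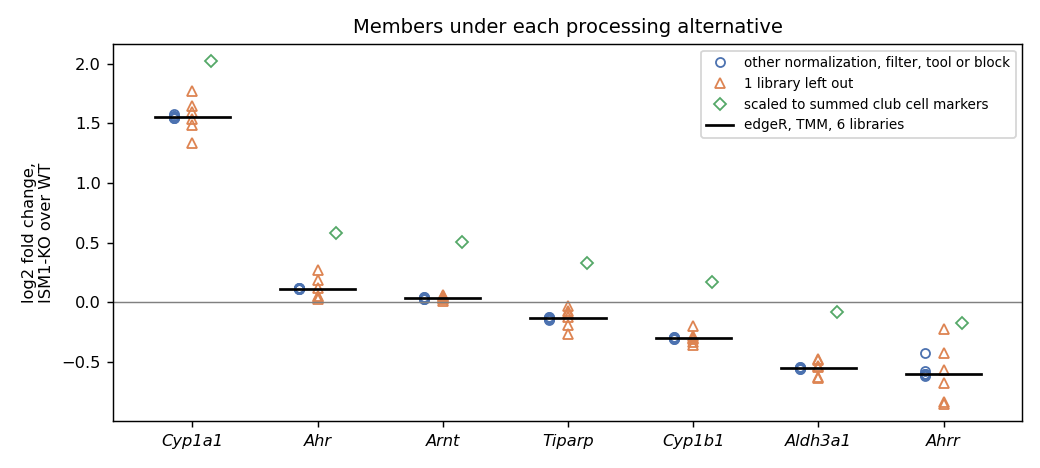
Log2 fold change of the tested members (ISM1-KO over WT) with the reported value as a line, other normalizations, filters, tools or the replicate block as circles, 1 library left out as triangles, and scaling to the club cell sum as diamonds. Cyp1a1 lies between 1.33 and 1.77 in all but the last, where it is 2.02, and the diamonds lie about 0.46 above the line for every member because that scaling adds nearly the same amount to each.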

How the data were processed

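The 6 libraries come from perfused lungs, 3 per genotype. Libraries were directional and made from poly-A RNA, and reads of 150 bases were mapped to GRCm38 with STAR, and the submitters' processing notes also name CASAVA. The authors deposited whole-number counts per gene and FPKM values made from them. The counting program, annotation release and strand setting are not given in the sources used here.

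Groups came from the labels. Genes that reached 0.5 CPM in 1 or more libraries entered the test (18689 of 54532). In R 4.3.3 with edgeR 4.0.16, libraries were scaled by TMM and compared by glmQLFit and glmQLFTest without covariates, after the steps were tested on simulated data. A gene was called at a Benjamini-Hochberg adjusted p under 0.1 and 2-fold. Alternatives used DESeq2 1.42.0, limma 3.58.1, other scalings, filters and thresholds, a replicate block, and each library left out in turn.

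The members and lists were chosen with earlier results of these data known. Named were the members, from each list every gene called and up to 4 others with an adjusted p under 0.1, plus the 2 most abundant by FPKM where this gave fewer than 2, the 8 genes most like Cyp1a1, its tested neighbours within 200 kb, and Ism1. Nqo1, Tdo2, Il4i1, Haao and Kyat3 and the marker genes were named after their values were seen. Promoter windows are from RefSeq (GRCm38.p6), and transcripts shared between CYP1 genes were compared in GENCODE annotation. Protein sequences were not used here.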

Additional observations from a re-analysis of the deposited data

How the results depend on the processing

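The list was chosen on the rise of Cyp1a1 in this contrast, so the values of the members across alternatives are a description. Each tested member kept its sign in every planned fit that gave it a value (Ahrr had none above a mean of 2 CPM). Division by the club cell sum, added after seeing the data, raises every log2 fold change by about 0.46 and put Cyp1a1 at 2.02. With each library left out, the Cyp1a1 log2 fold change ran from 1.33 to 1.77. Over all genes, 106 were called, against 293 with all counted genes kept, 37 above a mean of 2 CPM, 51 at an adjusted p under 0.05 and 882 with no fold minimum, and 31 to 188 with 1 library left out (31 without ISM1-KO replicate 1, 38 without ISM1-KO replicate 2, 41 without WT replicate 2, 62 without WT replicate 3 and 188 without ISM1-KO replicate 3). DESeq2 called 115. With no fold minimum, 2 members were called, and of the lists, 1 gene of the AhR battery, 2 of the tryptophan route, 3 of the P450 partners, 1 of the HIF arm and 2 of the PAS family. The P450 partners had 0 to 1 gene called with 1 library left out. Of the 8 genes most like Cyp1a1, 0 were shared by Pearson's r. Where not stated, the cause was not tested.

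Replicate numbers are shared between genotypes but the mice differ, and the deviations of same-numbered libraries had correlations of -0.0405, 0.0310 and 0.00101, so the numbers do not pair the samples. With a replicate block 130 genes were called and Cyp1a1 was at 1.58. Ahrr, at 15 to 40 counts per library, and Cyp1a2, at 0 to 2, are limited by depth.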
